A study of Mus musculus with 6 samples.

Results

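The genes described here form the LIN28, HMGA and IGF2BP fetal axis. There were 10 of them among the 24062 genes of the count table: Lin28a and Lin28b, Hmga1 and Hmga2, Igf2bp1, Igf2bp2 and Igf2bp3, Arid3a, Dicer1 and Zcchc11. They were picked as a pathway from earlier results of these data, because Lin28a and Hmga2 differed between the groups in opposite directions. The differences between the groups are therefore given for these 10 genes as a description, with no p-value. Of the 10, 8 passed the filter on low counts, Igf2bp1 did not, and Lin28b had no read in any library.

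RNA was sequenced from mouse hematopoietic cells that a retrovirus carrying the leukemia fusion oncogene MLL-AF9 had transformed. The starting cells lacked surface markers of mature blood lineages (lineage negative). Those of the WT-labelled group came from A20+/+ Rosa Cre-ER mice and those of the KO-labelled group from A20 f/f Rosa Cre-ER mice, so both groups carried the tamoxifen-activated Cre recombinase and the oncogene, and both were kept in IL-6, IL-3 and SCF. All cultures received 1 µM 4-hydroxytamoxifen for 48 h, with 3 samples (1 library each) in each group, and the study asked what deletion of A20, the ubiquitin-editing enzyme encoded by Tnfaip3, changed in these cells. Animal age is not given in the labels, nor whether the 3 libraries of a group came from separate mice or separate transductions, so the spread between libraries may be technical.

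LIN28 proteins bind the precursors of the let-7 microRNAs and block their maturation. The terminal uridylyl transferase encoded by Zcchc11, also named Tut4, adds uridines to a let-7 precursor held by LIN28, which marks it for decay, and Dicer1 encodes the enzyme that cuts precursors into mature microRNAs. Mature let-7 in turn represses mRNAs that carry its seed match in their 3′ UTR, among them Lin28a, Lin28b, Hmga2, the Igf2bp genes and Arid3a. In blood, Lin28b is known as a fetal gene whose loss accompanies the rise of let-7 after birth, and Hmga2 and Igf2bp genes are known as downstream parts of that programme.

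The let-7 seed is the element that these genes share in sequence, so representative family members and the matches in the members' 3′ UTRs are shown before the expression values. Of 11 mature let-7 family names in RefSeq (GRCm38.p6), 10 carry the same seed (bases 2 to 8, in capitals), and let-7j has another seed.
mmu-let-7a-5p: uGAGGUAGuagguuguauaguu
mmu-let-7b-5p: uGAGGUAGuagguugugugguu
mmu-let-7g-5p: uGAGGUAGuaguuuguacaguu
mmu-miR-98-5p: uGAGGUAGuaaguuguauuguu
mmu-let-7j: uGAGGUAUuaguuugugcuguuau

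The searched motif was CTACCTC, the reverse complement of that seed, on the transcript strand of each gene's longest annotated 3′ UTR (GENCODE M21, mm10). An 8-base match, CTACCTCA, has an A after it and is a subset of the 7-base matches. The windows below are 23 bases long, each within 1 exon, with the match in capitals. Both matches of Lin28a and all 4 of Hmga2 are printed because these genes carry the largest differences, and 1 match each of 5 other members shows the same motif across the axis.
Lin28a, chr4:134005189-134005211, minus strand: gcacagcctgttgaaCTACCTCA
Lin28a, chr4:134004551-134004573, minus strand: gagatcgccacaaacCTACCTCA
Hmga2, chr10:120364224-120364246, minus strand: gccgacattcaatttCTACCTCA
Hmga2, chr10:120362987-120363009, minus strand: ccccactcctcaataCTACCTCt
Hmga2, chr10:120362549-120362571, minus strand: ctgatttgcaaggaaCTACCTCc
Hmga2, chr10:120361691-120361713, minus strand: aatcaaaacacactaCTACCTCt
Lin28b, chr10:45381022-45381044, minus strand: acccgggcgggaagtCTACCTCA
Igf2bp1, chr11:95961778-95961800, minus strand: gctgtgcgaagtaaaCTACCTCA
Igf2bp2, chr16:22059473-22059495, minus strand: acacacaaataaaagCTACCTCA
Igf2bp3, chr6:49086787-49086809, minus strand: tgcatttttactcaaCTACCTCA
Arid3a, chr10:79953895-79953917, plus strand: aaggcaagtttctttCTACCTCA

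Counted as 7-base matches, Lin28b, Hmga2 and Igf2bp1 held 4 each, Lin28a and Arid3a 2 each, and Hmga1, Igf2bp2 and Igf2bp3 1 each. Dicer1 and Zcchc11, the enzymes of the axis, held 0 in 3′ UTRs of 3851 and 636 bases. Of these matches, 8-base ones numbered 3 in Igf2bp1, 2 in Lin28a, 1 each in Lin28b, Hmga2, Igf2bp2, Igf2bp3 and Arid3a, and 0 in Hmga1. Among 20011 genes with an annotated 3′ UTR, 9.28% held at least 1 7-base match and 3.17% at least 1 8-base match. Only 12 of them (0.06%) held 4 or more 7-base matches. A match describes the letters of the UTR and is not evidence of binding.

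**Figure D1:**
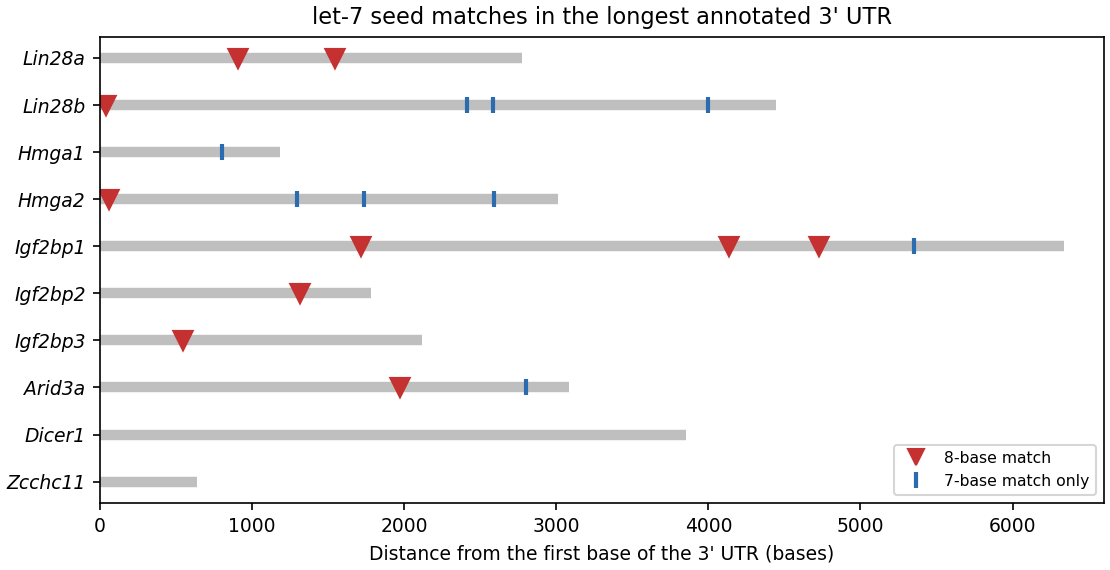
Position of let-7 seed matches along the longest annotated 3′ UTR of each of the 10 genes, as the distance in bases from the first base of the UTR; grey bars give the UTR's length, red triangles 8-base matches and blue ticks 7-base matches without the A. Lin28b, Hmga2 and Igf2bp1 have 4 matches each, while Dicer1 and Zcchc11 have none.

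The libraries held 16113320 to 25415274 counted reads, and levels below are CPM, read counts divided by the TMM-scaled library size, as mean ± SD over 3 libraries where a group is summarised. A count of 3, taken as the floor, equals 0.125 to 0.179 CPM. The targeted gene went against its label: Tnfaip3 was at 8.10 ± 0.65 CPM in the WT-labelled samples and 84.4 ± 13.8 CPM in the KO-labelled samples, with counts over all exons, which do not measure the deletion. Groups are therefore named by their labels throughout, and each direction is that of the KO-labelled group against the WT-labelled group. The donors of the groups also differed in sex, with Xist at 564 to 2109 CPM against 0 to 4.77 and the Y-linked Ddx3y at 0 to 0.80 CPM against 78.5 to 89.2, so genotype and sex cannot be told apart in any comparison here. Replicate 1 of each group stood apart from replicates 2 and 3 by chi-square per degree of freedom (79.7 to 231 against 2.37 and 25.2), and values within the replicate 1 pair and within replicates 2 and 3 are given beside the results that depend on it. The 6 general hematopoietic markers all had reads in both groups, with summed levels of 1778 to 2366 against 2519 to 3071 CPM. Runx1 was called lower, at 102 against 38.0 CPM, a call lost in 6 of 18 alternatives, and the other 5 were not called. Of 10 myeloid progenitor markers, also all present, Kit, Cd34, Mpo, Ctsg and Ms4a3 were lower and Csf1r was higher in the KO-labelled samples, with summed levels of 4587 to 5134 against 2262 to 2584 CPM. The 3 megakaryocyte markers (Itga2b, Pf4, Gp9) were all lower, at a sum of 26.6 to 40.4 against 0.86 to 1.07 CPM. Of the endothelial markers, Pecam1 was called lower, at 294 against 74.5 CPM, and the other 2 were not tested. Of the T cell markers, Cd3e and Cd8a had no read in any library, Lck was called lower, at 9.13 against 3.91 CPM, and Cd4 was called higher, with 0, 2 and 0 reads against 103, 15 and 11. The summed B cell markers were at 0 against 0.045 to 0.18 CPM, with Cd79a at 0 reads against 1, 4 and 2. Mpo, Pf4 and Gp9 passed the low-count filter only through the WT-labelled libraries, and Cd4 only through the KO-labelled ones. These marker differences stand beside every result below, and their part in the results was not tested. In bulk libraries such as these, fewer cells of a type and less RNA per cell cannot be told apart.

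Across all 12126 tested genes, 1660 (13.7%) were called higher and 1656 (13.7%) lower at an adjusted p under 0.05 (edgeR's quasi-likelihood test, adjusted by Benjamini-Hochberg). Among the 8 tested members 2 were called higher, Lin28a and Arid3a, 2 were called lower, Hmga2 and Zcchc11, and 4 were not called. Because the same contrast chose the members, nothing is read from that count. In replicates 2 and 3 alone, where 25.8% of 12201 tested genes were called higher and 27.1% lower, Igf2bp3 joined the higher members and Igf2bp2 the lower ones.

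**Figure D2:**
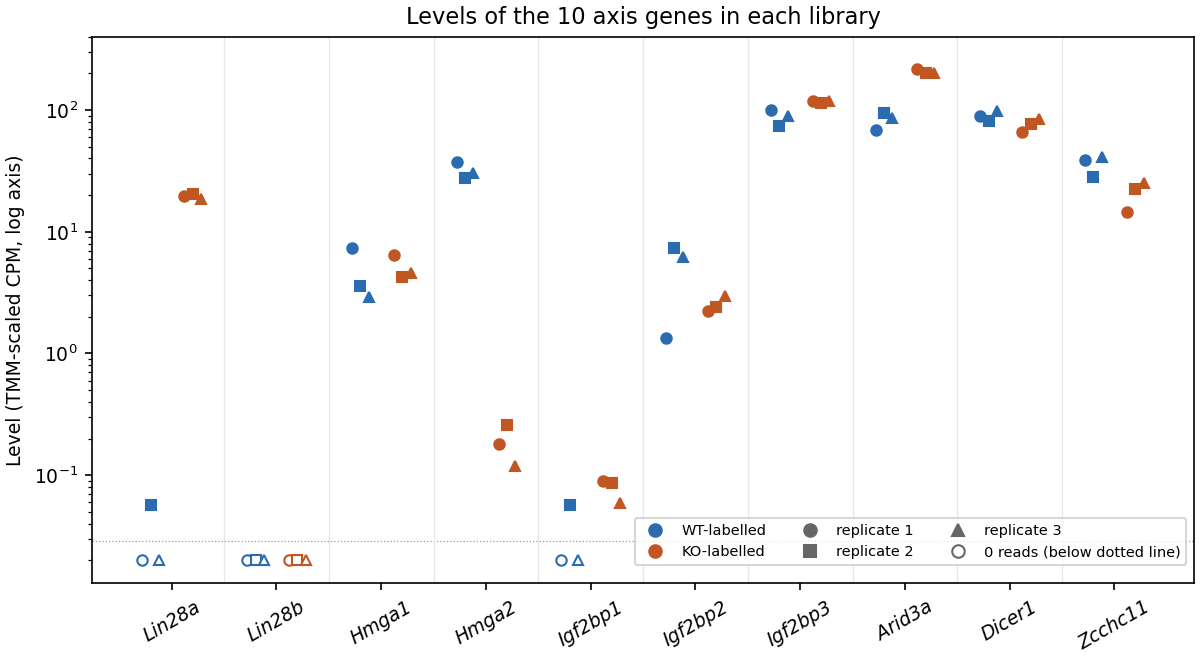
Level of each of the 10 genes in every library, in TMM-scaled CPM on a log axis; colour gives the group, the marker shape the replicate, and open symbols below the dotted line are libraries with 0 reads. Lin28a and Hmga2 trade places between the groups, Arid3a sits higher in all 3 KO-labelled libraries, and Dicer1 and Hmga1 overlap.

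Lin28a, an RNA-binding inhibitor of let-7 maturation that is best known from embryonic stem cells, was all but absent from the WT-labelled libraries and readily detected in the KO-labelled ones. It had 0, 1 and 0 reads in the WT-labelled samples and 440, 476 and 310 reads in the KO-labelled samples. As levels these were 0, 0.057 and 0 CPM against 19.8, 20.6 and 18.5 CPM, with means of 0.019 and 19.6 ± 1.06. The groups lay far apart, and the KO-labelled libraries differed little from each other. Since the WT-labelled group held 1 read in all, the ratio of pooled reads (1226 to 1, adjusted for depth) was 1216 with a 95% counting interval of 218 to 48057. That interval covers the counting of pooled reads only. It leaves out variation between libraries and is not the uncertainty of the group difference. The gene lies at chr4:134003330-134018841 on the minus strand, and Gm13061 overlaps it on the opposite strand by 695 bases. As the strand setting of the counting is not given, reads of that stretch cannot be told apart.

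Because Lin28a is known from stem and germ cells, 10 markers of such cells were read beside it. Nanog, Zfp42, Dppa3, Dppa4 and Utf1 had no read in any library, and Pou5f1, Dppa5a, Tdgf1 and Dazl had group means of at most 0.09 CPM. Their summed level was 12.2 to 19.9 CPM in the WT-labelled samples and 0.74 to 4.37 CPM in the KO-labelled samples. Nearly all of it came from the germ cell helicase gene Ddx4, which fell from 15.7 to 1.99 CPM (adjusted p = 0.012, edgeR; lost in 2 of 18 alternatives). Ddx4 was thus lower where Lin28a was higher, while the other markers were at or near 0 in both groups and show no direction.

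Lin28b, the paralog of Lin28a that is known for fetal blood formation, had 0 reads in each of the 6 libraries. This is below 3 counts, or 0.125 to 0.179 CPM per library. The gene spans chr10:45376620-45486395 on the minus strand, and its closest tested neighbour Hace1 was not called.

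Hmga2, an architectural chromatin protein gene with AT-hooks that is expressed in fetal stem cells and repressed by let-7, showed the opposite pattern to Lin28a. It had 901, 478 and 617 reads in the WT-labelled samples and 4, 6 and 2 in the KO-labelled ones. In CPM these were 37.6, 27.4 and 30.6 against 0.18, 0.26 and 0.12. Every KO-labelled library was close to the floor and every WT-labelled library was more than 100 times above it. Means were 31.9 ± 5.19 and 0.19 ± 0.07 CPM, 171-fold lower, with a fitted log2 fold change of -7.33 (SE 0.30). The gene lies at chr10:120361275-120476469 on the minus strand, and Llph, the only tested gene that starts within 250 kb of it, was not called.

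A second row bearing the same name moved against Hmga2. The row of Hmga2-ps1, which RefSeq lists as a transcribed pseudogene at 176834624 to 176836133 of chromosome 1 (GRCm38.p6), was examined after its values had been seen. It had 1, 4 and 8 reads in the WT-labelled samples and 603, 512 and 342 in the KO-labelled samples. Its mean rose from 0.22 to 23.2 ± 3.51 CPM (log2 fold change 6.72, SE 0.52; adjusted p = 2.2e-04 by edgeR), and the call held in 18 of 18 alternatives. The row passed the low-count filter only through the KO-labelled libraries, so the call describes this row alone. Added together, Hmga2 and Hmga2-ps1 gave 32.1 ± 5.07 CPM in the WT-labelled samples and 23.4 ± 3.52 CPM in the KO-labelled samples. Of the reads in the pair, Hmga2 took 98.7% to 99.9% in the WT-labelled samples and 0.58% to 1.16% in the KO-labelled ones. The sum thus differed 1.37-fold where each row differed by over 100-fold.

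The pseudogene sequence was not used here, so how many reads could align to both rows was not tested, and the Hmga2 level is uncertain in that respect. Hmga2-ps1 lies within Sdccag8, a centrosome gene at chr1:176814660-177020438, whose own level was 21.8 ± 4.65 against 22.7 ± 1.18 CPM and was not called. Cep170, which lies next to Sdccag8, was at 65.1 and 73.7 CPM and was not called. These neighbours were also chosen after their values were seen.

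**Figure D3:**
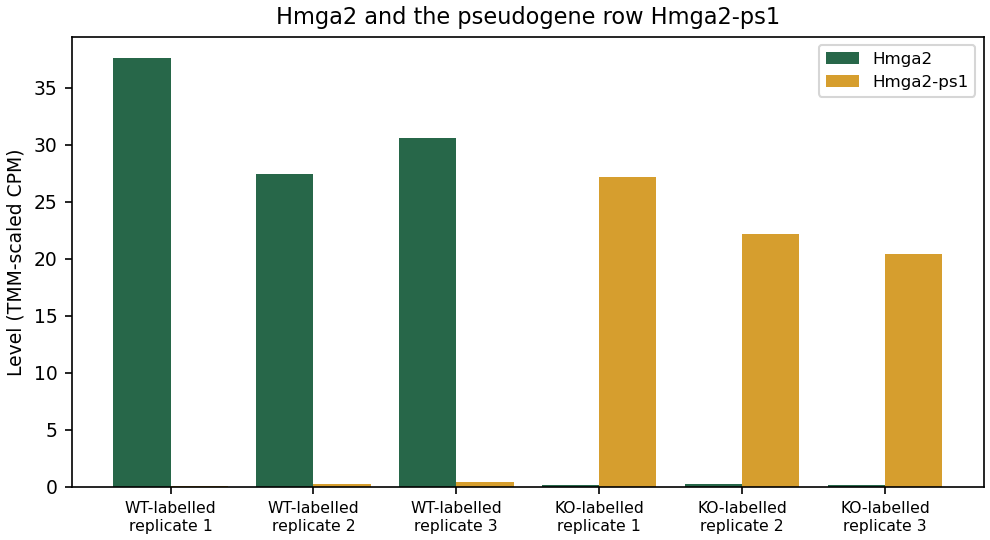
Level of Hmga2 and of the pseudogene row Hmga2-ps1 in each of the 6 libraries, in TMM-scaled CPM on a linear axis from 0, with 1 bar per row and library. Hmga2 makes up almost all of the pair in the WT-labelled samples and Hmga2-ps1 almost all of it in the KO-labelled samples.

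Hmga1, the other AT-hook gene of the family, did not follow Hmga2. It had 175, 63 and 59 reads in the WT-labelled samples and 142, 98 and 77 in the KO-labelled samples, or 7.30, 3.62 and 2.93 against 6.40, 4.24 and 4.60 CPM. Replicate 1 was the highest library of both groups, and the groups overlapped (log2 fold change 0.13, SE 0.40). Of its 31-base words, 62.1% also occur in transcripts of other genes. The level of Hmga1 is thus uncertain, as reads that align to several places may have been left uncounted. The gene lies at chr17:27556497-27563674 on the plus strand, and AI413582, which overlaps its end on the opposite strand by 102 bases, rose from 25.3 to 45.5 CPM (adjusted p = 0.0052, edgeR).

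The 3 Igf2bp genes encode RNA-binding proteins that stabilise mRNAs such as those of Igf2 and Myc, and they did not move together. Igf2bp3, at chr6:49085223-49214957, was the most abundant. It had 100.5, 73.4 and 88.8 CPM in the WT-labelled samples and 119.1, 115.2 and 119.2 CPM in the KO-labelled samples. All KO-labelled libraries lay above all WT-labelled ones, as was so for 24.1% of the tested genes in this direction and 23.5% in the other. Its log2 fold change was 0.43 (SE 0.14) and it was not called with all 6 libraries. DESeq2, replicates 2 and 3 alone, and the fit without WT-labelled replicate 1 called it higher. Malsu1 overlaps Igf2bp3 on the opposite strand by 1529 bases, and its level was 19.8 against 26.7 CPM, not called. The strand setting of the counting is not given in the sources used here, so reads of the shared stretch cannot be told apart.

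Igf2bp2, at chr16:22059009-22163299, is the family member known for continued expression in adult tissues. Its levels were 1.34, 7.41 and 6.26 CPM in the WT-labelled samples and 2.25, 2.42 and 2.98 CPM in the KO-labelled ones. WT-labelled replicate 1 was the lowest library of all, and the other WT-labelled replicates were the highest. On the scale of log2(CPM + 0.5) the difference was 0.58 in the replicate 1 pair and -1.20 in replicates 2 and 3. The fit over all libraries gave a log2 fold change of -0.96 (SE 0.59) and no call. It was called lower without WT-labelled replicate 1 and in the fit of replicates 2 and 3 alone.

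Igf2bp1, a fetal member of the family at chr11:95957163-96005940, had 0, 1 and 0 reads in the WT-labelled samples and 2, 2 and 1 in the KO-labelled samples. All values were below the floor, so no fold is given. Igf2bp3 exceeded Igf2bp2 in reads per length in every library, but by ratios that were 68.3, 8.99 and 12.9 in the WT-labelled samples and 47.9, 43.1 and 36.2 in the KO-labelled samples. The ratio was again widest in WT-labelled replicate 1.

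Arid3a, an AT-rich DNA-binding factor with roles in hematopoietic stem cells and B cells that is placed downstream of let-7, was higher in the KO-labelled samples. Its levels were 69.1, 95.0 and 86.2 CPM against 219.1, 202.9 and 200.9 CPM. The lowest KO-labelled library had more than 2 times the level of the highest WT-labelled one. Means were 83.5 and 207.6 CPM, with a log2 fold change of 1.32 (SE 0.15). The replicate 1 pair differed by 1.66 and replicates 2 and 3 by 1.15 on the log2(CPM + 0.5) scale. The gene lies at chr10:79927043-79955018 on the plus strand.

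The processing enzymes showed smaller differences. Dicer1, at chr12:104687742-104751952, had 89.2, 80.8 and 98.6 CPM in the WT-labelled samples and 66.6, 77.1 and 84.2 CPM in the KO-labelled samples. The groups overlapped, and the log2 fold change of -0.24 (SE 0.14) was not called. Zcchc11, at chr4:108459426-108559421, had 39.2, 28.3 and 41.1 CPM against 14.5, 22.6 and 24.9 CPM. Its groups did not overlap and it was called lower with all libraries (log2 fold change -0.81, SE 0.24). On the log2(CPM + 0.5) scale it differed by -1.41 in the replicate 1 pair and by -0.51 in replicates 2 and 3. The call was lost in 10 of 18 alternatives, among them the removal of any single library. Lin28a, Hmga2 and Arid3a kept theirs in 18 of 18. The members were picked with this contrast in view, so those kept calls are a description and give no support.

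**Figure D4:**
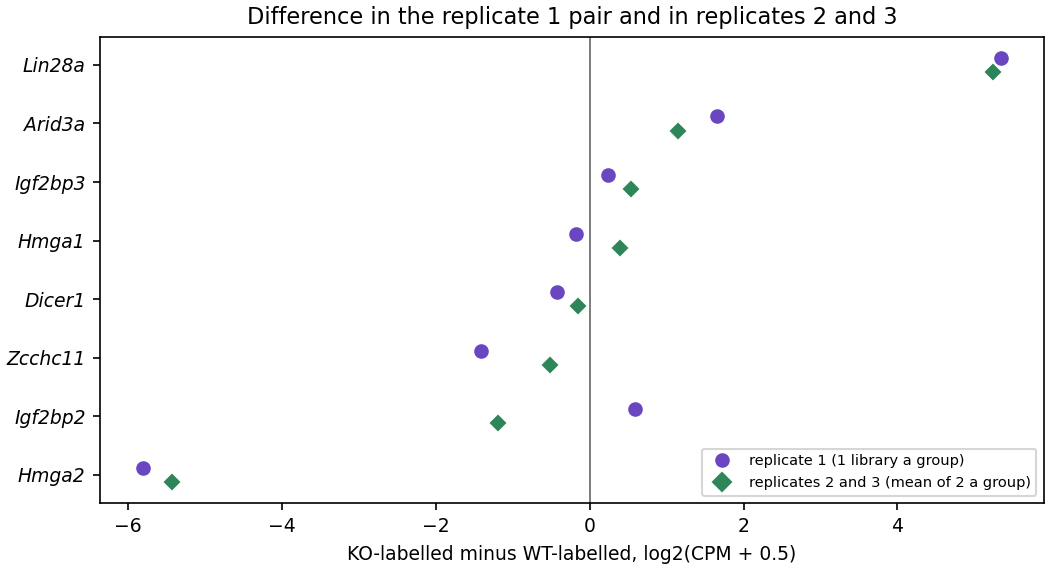
Difference between KO-labelled and WT-labelled libraries of the 8 tested genes, as log2(CPM + 0.5), within the replicate 1 pair (circles, 1 library a group) and between the means of replicates 2 and 3 (diamonds). Igf2bp2 and Hmga1 lie on opposite sides of 0 in the pair and in the other replicates, and the other 6 genes lie on the same side in both.

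Compared per length, as RPKM, which divides the CPM by kilobases of merged exon, the order of the axis genes changed mainly at Lin28a and Hmga2. In the WT-labelled libraries it ran Arid3a 15.0, Igf2bp3 10.7, Dicer1 5.34, Hmga2 4.71, Zcchc11 4.17, Hmga1 2.17 and Igf2bp2 0.68 RPKM, with Lin28a, Igf2bp1 and Lin28b at or next to 0. The ranges of neighbours from Dicer1 to Hmga1 overlapped, so that order is not settled. In the KO-labelled libraries it ran Arid3a 37.3, Igf2bp3 14.4, Lin28a 4.92, Dicer1 4.53, Hmga1 2.39, Zcchc11 2.38, Igf2bp2 0.35 and Hmga2 0.028 RPKM. Here the ranges of Lin28a and Dicer1, and of Hmga1 and Zcchc11, overlapped. With the length of the longest transcript in place of merged exons, Igf2bp3 came above Arid3a in the WT-labelled samples (20.2 against 15.6 RPKM), and Dicer1 came above Lin28a in the KO-labelled samples (7.71 against 5.60 RPKM).

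The let-7 genes themselves are poorly seen in libraries of polyadenylated RNA, which do not measure mature microRNAs. Of 13 precursor rows named let-7, 11 had no read, and the row of Mir98 was not included in this count. Mirlet7d had 1, 7 and 2 reads against 5, 2 and 5, and Mirlet7i had 3, 1 and 0 against 0, 2 and 0. Mirlet7bhg, the host transcript of let-7b and let-7c-2, had 10, 19 and 11 reads in the WT-labelled samples and 2, 3 and 2 in the KO-labelled samples. Its levels of 0.68 ± 0.36 and 0.11 ± 0.02 CPM did not overlap (exact two-sided permutation p = 0.1, the smallest that 3 against 3 libraries allow), and it was below the low-count filter. Mirlet7bhg was singled out after its values were seen.

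Other genes with let-7 matches were then counted, as a description. Of 414 tested genes outside the axis with at least 1 8-base match, 72 (17.4%) were called higher and 47 (11.4%) lower, with a median log2 fold change of 0.01. Of 11071 genes without one, 13.9% were called higher and 13.9% lower, with a median of -0.03. Genes with a match had longer 3′ UTRs, with a median of 2499 bases against 1125. In replicates 2 and 3 alone the shares were 30.4% higher and 24.4% lower with a match, against 26.6% and 26.8% without. Among 19 genes with 2 or more 8-base matches, 1 was called higher and 2 lower. The difference between the sets was not tested.

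Around the 10 genes, 5 lists of related genes were counted in the same fit. Together they held 104 genes outside the axis, 82 of them tested, of which 14 were called higher, 17 lower and 51 neither, beside 13.7% called in each direction over all tested genes. They had a median log2 fold change of -0.10 against -0.04 over all tested genes. Removing single libraries gave 4 to 20 higher and 11 to 20 lower, with the fewest of both without KO-labelled replicate 2 or 3 and the most of both without WT-labelled replicate 1.

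Of 24 tested genes of microRNA processing and let-7 turnover, 2 rose, 2 fell and 20 were not called, beside 13.7% in each direction over all tested genes. Their median was -0.18. Msi2, an RNA-binding regulator of blood stem cells whose relative Msi1 acts with LIN28 on let-7, fell from 204 ± 53.8 to 48.4 ± 4.14 CPM (adjusted p = 5.9e-04). Its WT-labelled libraries held 166.7 to 265.9 CPM and its KO-labelled ones 43.7 to 51.4. Dgcr8, the partner of Drosha in cutting primary transcripts, went from 60.0 to 43.8 CPM (adjusted p = 0.046), Ago4 from 8.59 to 15.8 (0.039) and the helicase gene Mov10 from 33.7 to 49.7 (0.049). These last calls were lost in 10, 8 and 12 of 18 alternatives. Drosha stood at 78.8 against 65.4 CPM, Dis3l2, the nuclease that degrades uridylated let-7 precursors, at 30.7 against 29.6, and Zcchc6, the second uridylyl transferase, at 88.9 against 99 CPM, and none of the 3 was called.

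Among established let-7 targets, 9 of 27 tested genes rose, 1 fell and 17 were not called, with a median of 0.22, beside the same 13.7% each way over all tested genes. In replicates 2 and 3 alone 13 rose and 7 fell, where 25.8% and 27.1% of all tested genes did. That 9 became 2 without KO-labelled replicate 2 or 3, 12 when WT-labelled replicate 1 was left out, and 5 when WT-labelled replicate 2 was. Peg10, an imprinted gene derived from a retrotransposon, went from 0.066 ± 0.059 to 19.1 ± 3.70 CPM (adjusted p = 1.1e-04). The death receptor gene Fas rose from 2.28 ± 1.15 to 21.5 ± 0.96 CPM (adjusted p = 0.0011), and Cdc34, a ubiquitin-conjugating enzyme gene, from 136 to 216 CPM (adjusted p = 0.012). Nras, Cdk6, E2f2, Arid3b, Plag1 and Irs2 were the other 6 that rose. The calls of Cdc34, Nras and Plag1 were each lost in 5 of 18 alternatives, Arid3b in 4, E2f2 and Irs2 in 8 each and Cdk6 in 11, while Peg10 and Fas kept theirs in all 18. Myc, which is also a known target, was at 186 against 184 CPM and was not called. Peg10, Cdk6 and Plag1 held no 7-base match in their longest annotated 3′ UTR in mouse.

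The insulin-like growth factor axis includes mRNAs that IGF2BP proteins bind. Of its 15 tested genes 3 rose, 4 fell and 8 were not called, with a median of -0.07, beside 13.7% called each way over all tested genes. Igf2r, the receptor that clears IGF2, rose from 7.42 ± 2.39 to 89.4 ± 13.2 CPM (adjusted p = 1.6e-04). The binding protein genes Igfbp4 and Igfbp7 fell from 687 ± 306 to 56.0 ± 9.04 CPM (adjusted p = 5.2e-04) and from 16 to 1.21 CPM (adjusted p = 0.0012). Grb10, an imprinted adaptor that dampens insulin signalling, fell from 33.4 ± 23.5 to 2.41 ± 0.54 CPM (adjusted p = 0.0025), and these 4 calls held in 18 of 18 alternatives. Irs1 and Irs2, receptor substrates, rose as well, the call of Irs2 being lost in 8 of 18. Igf2 itself was near 0, with group means of 0 and 0.015 CPM.

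Of 15 fetal blood genes only 6 were tested, of which 4 fell, 1 rose and 1 was not called, beside 13.7% called each way over all tested genes. Mecom, Aff3 and Hbb-bh1 passed the low-count filter only through the WT-labelled libraries, where they are high (as did Hmga2 and Hmgn3, and Lin28a, Peg10 and Irs1 through the KO-labelled ones), so the count describes these genes and not the list, and no median is given. Mecom, a transcription factor gene of blood stem cells, fell from 145 ± 18.7 to 0.39 ± 0.31 CPM (adjusted p = 8.6e-05), and Aff3 from 52.7 ± 5.34 to 0.15 ± 0.19 CPM (adjusted p = 1.2e-04). The embryonic globin gene Hbb-bh1 had 5.80, 4.42 and 3.82 CPM in the WT-labelled samples and 0 in the KO-labelled ones, at least 31.6-fold lower against a floor of 3 counts per library. Myb went from 524 to 318 CPM (adjusted p = 0.047), a call lost in 7 of 18 alternatives. Plag1 rose from 2.89 to 7.39 CPM (adjusted p = 0.022; lost in 5 of 18). Beside these genes, Lin28a was higher and Hmga2 lower in the KO-labelled samples.

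Relatives of the HMGA and ARID3 proteins gave 2 that rose, 6 that fell and 7 that were not called of 15 tested, with a median of -0.60, beside 13.7% called each way over all tested genes. The number that fell was 2 or 3 after removal of any library but WT-labelled replicate 1, and the number that rose was 0 or 1. The nucleosome-binding genes Hmgn3 and Hmgn1 fell from 70.8 ± 15.0 to 0.089 ± 0.090 CPM (adjusted p = 4.7e-05) and from 147 ± 34.4 to 41.6 ± 6.33 CPM (adjusted p = 0.0010). Arid3b, a close relative of Arid3a, rose from 7.66 ± 1.86 to 16.2 ± 0.49 CPM (adjusted p = 0.012), and Arid4b fell from 71.5 to 43.0 CPM (adjusted p = 0.026). The calls of Arid3b and Arid4b were lost in 4 and 7 of 18 alternatives. All adjusted p-values of these lists are from edgeR's quasi-likelihood test over all 12126 genes.

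**Figure D5:**
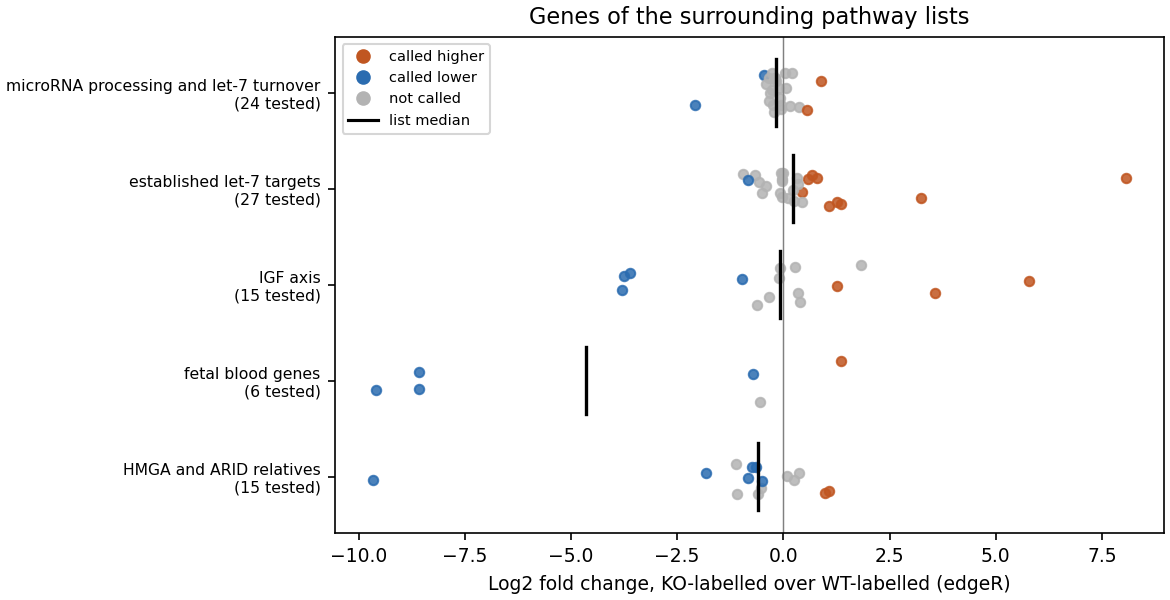
Log2 fold change (KO-labelled over WT-labelled, edgeR) of each tested gene in the 5 related lists, coloured by call, with a black line at each list's median (for fetal blood genes it lies in a gap between 3 genes kept through 1 group and the other 3). Genes with almost no reads in 1 group lie at the far left or right, where the fitted value depends on the prior count, and most microRNA processing genes lie near 0.

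Genes that start within 250 kb of a member's start were examined to see whether the large differences extended along the chromosome. Of 68 tested neighbours, 6 were called higher and 7 lower, no larger a share than the 13.7% called each way over all tested genes, so the calls named here are not read as particular to these regions. Around Lin28a 9 were tested and only Rps6ka1, a growth factor kinase gene 131 kb away, was called, at 231 against 337 CPM (adjusted p = 0.016; lost in 7 of 18 alternatives), while Dhdds, 17.9 kb away, was not. Around Arid3a 30 were tested, with R3hdm4, Palm, Prss57 and Cirbp lower and Cdc34 higher. The serine protease gene Prss57 fell from 41.0 to 1.03 CPM (adjusted p = 1.7e-04, edgeR). Near Igf2bp1, Hoxb13 rose from 0.036 to 10.3 CPM (adjusted p = 1.1e-04) while Abi3 and Gngt2 fell. Liph and Tmem41a rose near Igf2bp2, and Pacsin1 fell near Hmga1. The calls of Gngt2, Tmem41a and R3hdm4 were lost in 9, 7 and 5 of 18 alternatives, and those of Prss57, Hoxb13, Liph and Pacsin1 in 0. Hoxb13 and Liph passed the low-count filter only through the KO-labelled libraries, where they are high. Abi3, Pacsin1 and Prss57 passed it only through the WT-labelled ones. Their calls therefore describe these genes and not the regions.

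By the correlation of log2(CPM + 0.5) over the 6 libraries, among 11486 genes that averaged 1 CPM or more, the patterns most like Lin28a were those of Acsbg1 (Pearson r = 0.9997), Prom1 (0.9995) and Plk2 (0.9994). Acsbg1, an acyl-CoA synthetase gene, was at 0.055 and 19.1 CPM, a level and spread close to those of Lin28a. The patterns most like Hmga2 were those of Tal1 (0.9999) and Met (0.9995). Tal1, a transcription factor of blood stem cells, had 24.7 ± 4.02 CPM in the WT-labelled samples and 0.16 ± 0.05 CPM in the KO-labelled samples. These likenesses rest on 6 libraries in 2 groups, and 175 genes for Lin28a and 206 for Hmga2 had r above 0.99.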

How the data were processed

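Polyadenylated RNA of 6 mouse cultures was sequenced (TruSeq Stranded mRNA kit, per the labels). The authors deposited a table of raw read counts per gene, without normalization. Per the submitters' processing notes, the tools were FastQC 0.11.7, HISAT2 2.0.5 and featureCounts 1.5.2 with mm10; the gene annotation and the strand mode were not given in the sources used here. Of 24062 genes, 7384 had no read.

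The fit used edgeR 4.0.16 (R 4.3.3) with filterByExpr (minimum count 10), TMM factors and robust quasi-likelihood dispersions; p-values were adjusted by Benjamini-Hochberg over all 12126 tested genes, with a threshold of 0.05. The SE of a log2 fold change is its size divided by the square root of F. The script was tested on simulated data. Alternatives were other scalings and filters, DESeq2 1.42.0, limma-voom (limma 3.58.1), non-robust dispersion, a replicate block, replicates 2 and 3 alone and each library left out; 2 that sum replicates 2 and 3 were added after seeing the data.

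The members, lists and tests were chosen with earlier results of these data known. Named were the members, Tnfaip3, up to 4 called genes per list by p-value, called genes starting within 250 kb, and the 3 genes most like Lin28a and Hmga2; any other gene was named with its values in view. Seed matches, exon lengths and shared 31-base words came from GENCODE M21 transcripts (98.25% of symbols matched). Some genes that these rules name are not reported here. Promoter and protein sequences were not used here.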

Additional observations from a re-analysis of the deposited data

How the results depend on the processing

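Over 18 alternatives the direction of Lin28a, Hmga2, Arid3a and Zcchc11 did not change, and of the log2 fold changes of the 8 tested genes 133 moved by less than 1 SD of their libraries and 11 by more. The fitted value of Lin28a ran from 9.12 to 11.70, since it depends on 1 read. The count of called genes was 1660 higher and 1656 lower. It was 3149 and 3309 in replicates 2 and 3 alone, 982 and 945 with KO-labelled replicates 2 and 3 summed, and 543 and 518 with replicates 2 and 3 summed in each group; leaving out single libraries gave 939 to 2712 higher and 916 to 2568 lower. DESeq2 called 4087 genes in all and limma-voom 3291. Among the 82 tested pathway genes outside the axis, 14 rose and 17 fell. These became 23 and 30 in replicates 2 and 3 alone, 4 and 11 with KO-labelled replicates 2 and 3 summed, and 4 and 9 with replicates 2 and 3 summed in each group. With library totals as the only scaling 8 rose. Without single libraries 4 to 20 rose and 11 to 20 fell. No scaling moved the median of all genes by over 0.1 (log2).

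The labels do not say that equal replicate numbers mark shared cells, and the deviations of same-numbered libraries correlated at -0.05, -0.11 and 0.04, so the numbers were not taken as pairs. With a replicate block in the fit 989 genes were called higher and 1034 lower, and 8 of the pathway genes rose.

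A count of 3 allowed no level below 0.125 to 0.179 CPM to be told from 0, which limits Lin28b, Igf2bp1 and the let-7 precursors. Per-length levels of Hmga2, Igf2bp3, Dicer1 and Zcchc11 rose with the longest transcript's length; WT-labelled Hmga2 was then at 8.37 RPKM. Under the 8-base motif the matches of Hmga2 fell from 4 to 1.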
